A study of Homo sapiens with 6 samples.

Results

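The genes described here carry the symbol ZNF and a number and lie outside chromosome 19. They were taken from the platform annotation as symbols of ZNF, digits and at most 1 letter whose probe set is not placed on chromosome 19, which gave 249 of the 17687 genes measured. The other 233 of the 482 genes with such symbols lie on chromosome 19. The 249 were picked by name and position, but the family was proposed for description, and its falling genes singled out, from the same contrast that is described below. Differences between the groups are therefore given as a description, with the fit's calls as a count only.

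Expression was measured on whole-transcript arrays in SH-SY5Y, an established human neuroblastoma line of sympathetic origin, after retinoic acid (atRA) differentiation over 96 h in both groups. The treated group, labelled 15EN, has 3 arrays that titles and source names put at passages 33, 34 and 35, and the labels' treatment text gives the compound at 15 µM. The vehicle control group, VC, has 3 arrays given the same passages there, so that each replicate number joins 1 array of each group. The labels do not spell out 15EN. Eurycomanone, a quassinoid from Eurycoma longifolia root, is the compound in the title of the series. All samples come from 1 cell line, and only the passage numbers hint at separate cultures. The labels disagree on these, since every sample description gives passage 33. Any p-value here therefore reflects how far these arrays spread, and that spread may be technical.

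The deposited values are log2 signals, so a difference of 1 is a 2-fold change. Array medians ran from 7.67 to 7.75. Pearson's r over all probe sets was 0.991 between 15EN replicates 1 and 2, but 0.979 and 0.980 between 15EN replicate 3 and these. Among the VC arrays it was 0.990 to 0.992. 15EN replicate 3 thus stood apart from its group. Of 12 measured markers of adrenergic neuroblastoma, the lineage factors HAND2, GATA3, ISL1 and GATA2 were bright in both groups, while TH and CHGA, of catecholamine synthesis and storage, lay below the 90th percentile of the negative controls in both. None of these 12 rose and 6 fell in 15EN as deposited, where 12.3% of all genes were called higher and 9.09% lower. After scaling to the hybridization controls, 2 (STMN2 and DBH) passed as lower and 4 of the 12 as higher. Of all genes, 2.47% passed as lower and 68.7% as higher there. Without 15EN replicate 1 or VC replicate 1, 3 of the 12 fell, as did 6.44% and 6.34% of all genes. The 7 measured markers of Schwann cells and glia all lay below that percentile in both groups. Of 11 markers of mesenchymal neuroblastoma cells or fibroblasts, 0 rose and 3 fell as deposited, against 12.3% and 9.09% of all genes. After that scaling 2 rose and 0 fell, against 68.7% and 2.47%. The falls numbered 5 without 15EN replicate 3 or with the replicate number as a block, where 12.7% and 10.1% of all genes fell. They numbered 1 without 15EN replicate 1, VC replicate 2 or VC replicate 3, and 2 without either other array. In those fits 5.48% to 6.86% of all genes fell. The sum of the log2 signals of these 11 markers was 106 to 114 in 15EN arrays and 116 to 117 in VC arrays. Their part in the results below was not tested. In these bulk samples, fewer cells of a type and less RNA per cell cannot be told apart.

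Most ZNF proteins bind DNA through a row of zinc fingers, short folds held together by a zinc ion, and each finger reads a few bases. Many also carry a KRAB domain, which recruits the corepressor TRIM28 and, through it, the histone methyltransferase SETDB1, heterochromatin proteins and histone deacetylases, and so silences transposable elements and nearby genes. KRAB genes sit in clusters that grew by repeated duplication, most densely on chromosome 19. The genes outside chromosome 19 are a more mixed set, which also holds chromatin cofactors, RNA-binding proteins and older developmental regulators without a KRAB domain.

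The ZNF genes outside chromosome 19 were shifted upward in 15EN. Of the 249, 63 were higher and 10 lower in 15EN at an adjusted p under 0.05 (limma, Benjamini-Hochberg over all genes), and 176 did not pass. The background was 12.3% of all genes called higher and 9.09% called lower, against 25.3% and 4.02% of the ZNF genes, and no support is drawn from this because the contrast was used to propose the family. The median log2 difference of the 249 was 0.38, against 0.01 for all genes, and 186 of them (74.7%) had a positive difference, against 51.2% of all genes. Differences ran from -2.01 to 3.04. In 91 of the 249 all 3 15EN arrays lay above all 3 VC arrays, a pattern seen in 19.7% of all genes, and in 21 all 15EN arrays lay below, as in 16.6% of all genes. The hybridization controls were dimmer in 15EN. Setting them equal on all arrays added 1 constant to each difference, and the median became 1.25 for the ZNF genes and 0.88 for all genes.

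The shift was not the same in the 3 treated arrays. Relative to the VC mean of each gene, the median ZNF gene stood at 0.42 in 15EN replicate 1, 0.55 in replicate 2 and 0.09 in replicate 3, while the VC arrays stood at 0.08, 0.05 and -0.10. The median of all genes was -0.03, -0.04 and 0.07 in the 15EN arrays and between -0.01 and 0.00 in the VC arrays. In 15EN replicate 3 the ZNF median thus was close to that of all genes, and 140 of the 249 lay above their VC mean there, against 191 and 193 in replicates 1 and 2. VC replicate 3, of the same number, had the lowest ZNF median of the VC arrays. Taken within replicate numbers, 15EN minus VC, the median difference was 0.35, 0.48 and 0.25 for numbers 1, 2 and 3, against -0.03, -0.01 and 0.08 over all genes. Without 15EN replicate 3 the calls became 101 higher and 9 lower (40.6% and 3.61%). All genes also moved there, to 18.2% called higher and 12.7% lower. The call count also moved by more than 1.5 times in other smaller fits. It was 41 higher and 6 lower without 15EN replicate 2 and 41 higher without VC replicate 3. It was 5 lower without VC replicate 1 and 6 lower without VC replicate 2. Of all genes, 7.36% to 8.32% were called higher and 5.48% to 6.86% lower in those fits.

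**Figure D1:**
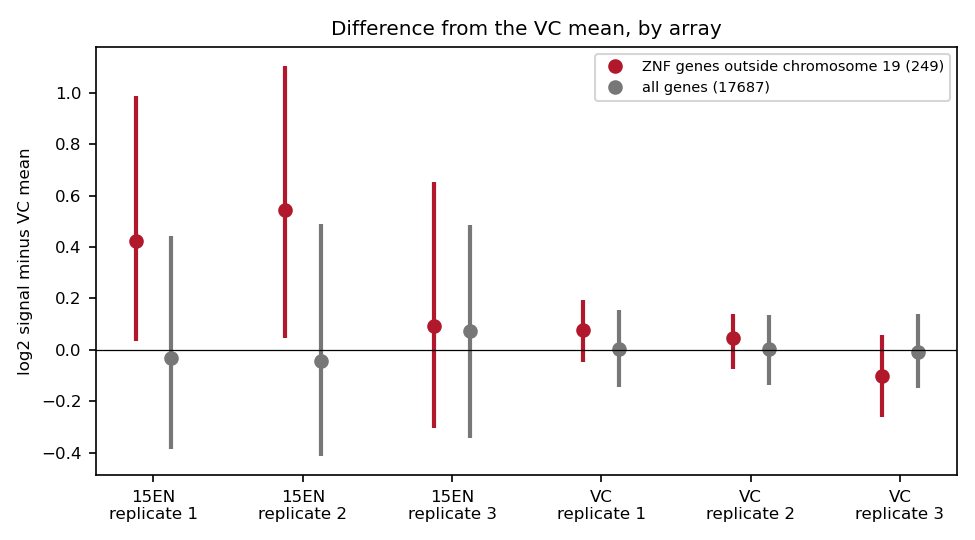
Median (point) and interquartile range (bar) of log2 signal minus the VC mean of each gene, for the 249 ZNF genes outside chromosome 19 and for all 17687 genes, on each array. The ZNF medians stand at 0.42 and 0.55 in 15EN replicates 1 and 2 and at 0.09 in 15EN replicate 3, where all genes stand at 0.07.

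ZNF genes are brighter than the average gene on this array, and brighter genes are called more often, so the family was also read by signal level. The median mean signal over the group was 9.64 in 15EN and 9.09 in VC, against 7.67 and 7.62 for all genes. When all genes were ranked by mean signal over the 6 arrays and divided into 10 equal bins, 180 of the ZNF genes fell in the brighter 5 bins and 69 in the dimmer 5. In 9 of the 10 bins the ZNF median lay above that of all genes; the exception was the dimmest, with 1 ZNF gene. In the seventh bin, the fullest with 48, the ZNF median was 0.41 against 0.12 for all genes, and in the brightest, with 17, it was 0.56 against 0.10. Set against the median of all genes in its own bin, the median ZNF gene stood 0.28 higher, and 179 of 249 lay above it. With all genes weighted by the bins the ZNF genes occupy, 16.5% would be called higher and 11.9% lower. Without 15EN replicate 3 the median distance from the bin was 0.41.

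**Figure D2:**
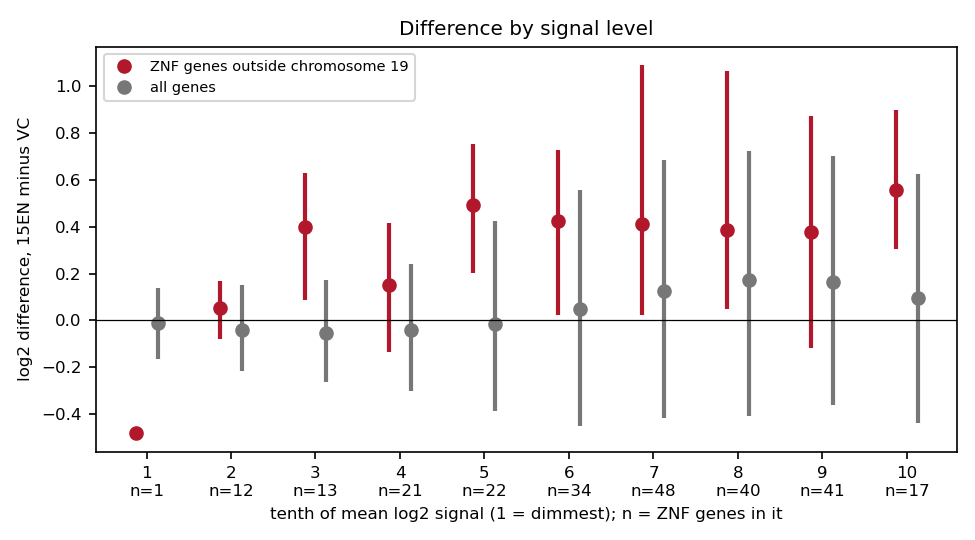
Median (point) and interquartile range (bar) of the log2 difference, 15EN minus VC, in 10 bins of mean log2 signal, for ZNF genes outside chromosome 19 and for all genes. The ZNF median lies above that of all genes in every bin except the dimmest, which holds 1 ZNF gene.

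The split by brightness held the array pattern. Among the 116 ZNF genes in the brightest of 3 equal classes of all genes, the medians in 15EN replicates 1, 2 and 3 were 0.46, 0.63 and 0.14 above the VC mean, against 0.16, 0.23 and 0.07 for all genes of that class. Among the 104 in the middle class they were 0.47, 0.60 and 0.09, against -0.02, 0.01 and 0.00. Among the 29 in the dim class they were 0.18, 0.20 and 0.01, against -0.10, -0.16 and 0.12. In each class 15EN replicate 3 had the lowest ZNF median of the 3 treated arrays.

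Against this upward shift, 10 genes fell in 15EN as deposited, of which 2 still passed as lower after scaling to the hybridization controls, and 3 (ZNF713, ZNF423 and ZNF512B) then had differences of 0.01, 0.04 and 0.18 against an all-gene median of 0.88. They were chosen for their fall, so their differences are a description. In all 10 the 15EN arrays lay below the VC arrays with no overlap, and in 5 (ZNF618, ZNF704, ZNF821, ZNF362 and ZNF248) the call stood when any 1 array was left out.

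The deepest fall was in ZNF618, a protein that binds hydroxymethylated DNA together with UHRF2. Its log2 signals were 9.12, 9.92 and 9.87 on the 15EN arrays 1, 2 and 3, against 11.73, 11.84 and 11.39 on the VC arrays, a difference of -2.01 ± 0.26 (SE). ZNF704, a transcriptional repressor, had 8.73, 9.09 and 8.40 in 15EN against 10.65, 10.32 and 10.14 in VC (-1.63 ± 0.25). In both genes the gap between the groups was wider than the spread within either. These are also the 2 that passed as lower after scaling to the hybridization controls, at -1.15 for ZNF618 and -0.76 for ZNF704.

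ZNF362, the vertebrate relative of the nematode developmental timing factor lin-29, had 10.11, 10.28 and 10.18 in 15EN against 11.85, 11.57 and 11.31 in VC (-1.38 ± 0.22). Its 15EN arrays were the tightest of the 10, with an SD of 0.09. ZNF248, a KRAB gene, had 8.21, 7.61 and 8.54 in 15EN against 9.58, 9.59 and 9.35 in VC (-1.38 ± 0.26). ZNF821 had 5.69, 5.83 and 5.03 in 15EN against 6.996, 6.60 and 7.19 in VC (-1.41 ± 0.27), and both of its means lay below the 90th percentile of the negative controls, so the size of its fall is uncertain.

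The other 5 falls were smaller, and each lost its call without some of the arrays. The KRAB gene ZNF92 had 11.32, 10.39 and 10.10 in 15EN against 11.76, 11.71 and 11.48 in VC (-1.05 ± 0.30), and 15EN replicate 1 lay close to the VC arrays. Without 15EN replicate 2 or any 1 VC array it did not pass (adjusted p = 0.0749 to 0.112, limma). ZNF25, another KRAB gene, had 7.37, 7.76 and 8.35 in 15EN against 8.70, 9.17 and 8.65 in VC (-1.01 ± 0.28). The KRAB gene ZNF713 had 9.08, 9.01 and 9.68 in 15EN against 10.19, 10.14 and 10.02 in VC (-0.86 ± 0.24). ZNF25 and ZNF713 passed without 15EN replicate 3 and in no other fit with 1 array left out (adjusted p = 0.0618 to 0.126 for ZNF25 and 0.0679 to 0.0935 for ZNF713, limma).

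ZNF423, a cofactor of EBF factors that takes part in the retinoic acid response of neuroblastoma cells, had 11.07, 10.82 and 10.95 in 15EN against 12.03, 11.54 and 11.77 in VC (-0.83 ± 0.22). It did not pass without 15EN replicate 2, VC replicate 1 or VC replicate 3 (adjusted p = 0.0682 to 0.0872, limma). ZNF512B had 8.59, 8.55 and 8.16 in 15EN against 9.30, 8.95 and 9.11 in VC (-0.69 ± 0.22). It did not pass in any fit with 1 array left out (adjusted p = 0.0681 to 0.168, limma) or with the replicate number as a block (adjusted p = 0.0502, limma). It stands just inside the threshold. The nearest genes outside it were ZNF185 (-0.67 ± 0.22), ZNF519 (-0.88 ± 0.29) and ZNF300 (-0.81 ± 0.29).

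**Figure D3:**
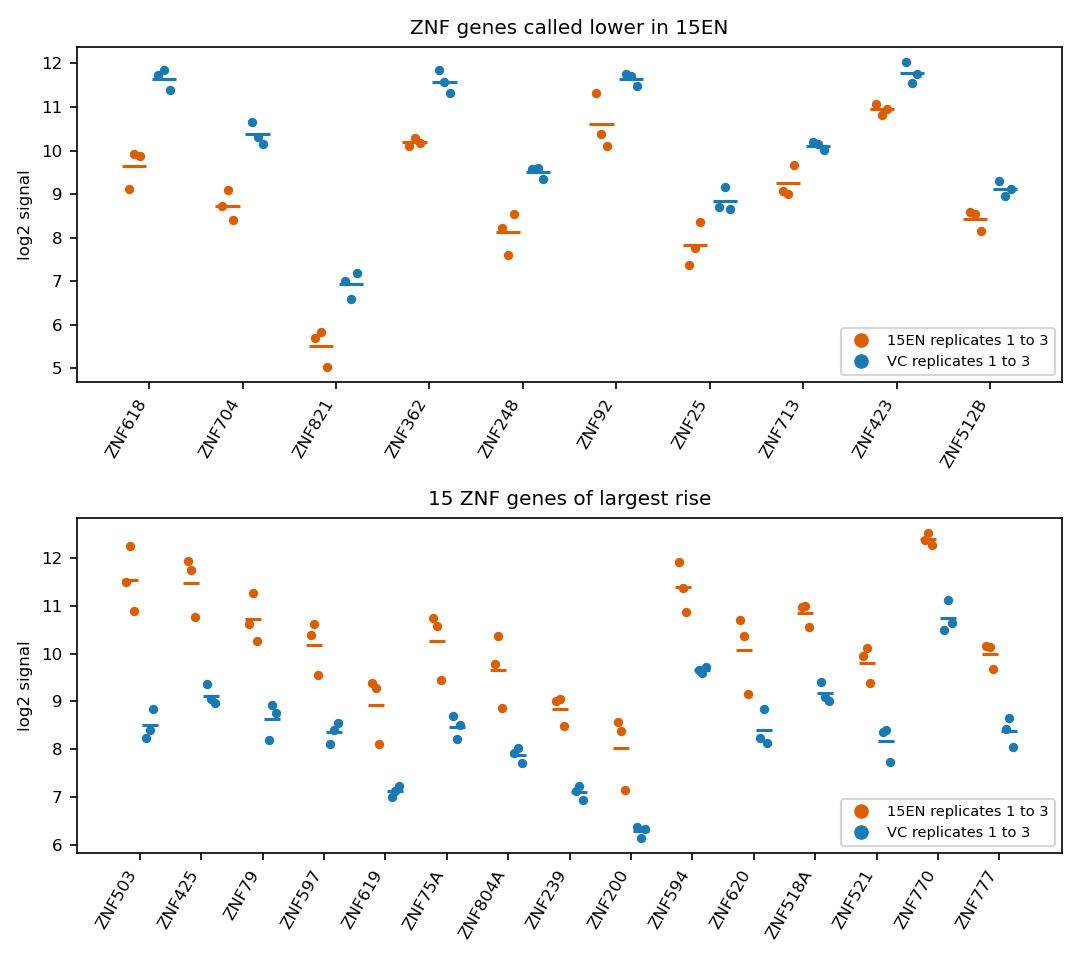
Log2 signal of the 10 ZNF genes called lower in 15EN (top) and the 15 of largest rise (bottom), 1 point per array and a line at the group mean, 15EN left of VC for each gene. No 15EN point overlaps the VC points of its gene. After scaling to the hybridization controls, ZNF713, ZNF423 and ZNF512B no longer differ downward (0.01, 0.04 and 0.18).

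The largest rise was in ZNF503, a zinc finger repressor of the NET family known from striatal development in the mouse. Its log2 signals were 11.50, 12.25 and 10.88 on the 15EN arrays 1, 2 and 3, against 8.24, 8.41 and 8.85 on the VC arrays, a difference of 3.04 ± 0.33 (SE). All 15EN arrays lay far above all VC arrays, with 15EN replicate 3 the lowest of the treated arrays. ZNF425, a KRAB gene, had 11.93, 11.74 and 10.76 in 15EN against 9.36, 9.04 and 8.97 in VC (2.35 ± 0.31). ZNF79, also a KRAB gene, had 10.62, 11.27 and 10.27 in 15EN against 8.20, 8.93 and 8.76 in VC (2.09 ± 0.30).

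ZNF597, an imprinted gene expressed from the maternal copy, had 10.39, 10.62 and 9.55 in 15EN against 8.11, 8.40 and 8.55 in VC (1.83 ± 0.29). The other 11 of the 15 largest rises, in descending order, were ZNF619 (1.79), ZNF75A, ZNF804A, ZNF239, ZNF200, ZNF594, ZNF620, ZNF518A, ZNF521, ZNF770 and ZNF777 (1.62). The VC mean of ZNF619, ZNF239 and ZNF200 lay below the 90th percentile of the negative controls, which makes the size of those rises uncertain. In 51 of the 63 genes that rose, 15EN replicate 3 was the lowest of the 3 treated arrays. The call stood in all 6 fits with 1 array left out for 34 of the 63, among them ZNF503, ZNF425, ZNF79 and ZNF597.

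ZNF326 and ZNF644, bright genes on chromosome 1 like ZNF362, rose with the family. ZNF326, a subunit of the DBIRD complex that couples transcript elongation to splicing, had 13.30, 13.56 and 12.98 in 15EN against 12.33, 12.24 and 11.87 in VC (1.13 ± 0.24). ZNF644, a partner of the histone methyltransferases EHMT1 and EHMT2, had 12.59, 12.07 and 12.02 in 15EN against 11.05, 11.21 and 11.58 in VC (0.95 ± 0.24). The groups did not overlap in either gene. ZNF644 did not pass without 15EN replicate 1, VC replicate 1 or VC replicate 2.

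The rises closest to the threshold were those of ZNF263 (0.63 ± 0.20), ZNF502 (0.72 ± 0.22) and ZNF354A (0.75 ± 0.23). The nearest genes outside it were ZNF669 (0.83 ± 0.27), ZNF140 (0.91 ± 0.30) and ZNF853 (0.75 ± 0.25), with differences as large but wider errors. ZNF263 did not pass with the replicate number as a block (adjusted p = 0.062, limma). The 5 brightest ZNF genes in VC spanned both outcomes. ZNF800 (14.68 ± 0.25 in 15EN and 13.71 ± 0.08 in VC, SD, n = 3 each) and ZNF451 (14.33 ± 0.36 and 13.40 ± 0.12) rose. ZNF532 (14.53 ± 0.66 in 15EN and 13.97 ± 0.26 in VC), ZNF664 (13.74 ± 0.17 and 13.78 ± 0.27) and ZNF595 (12.95 ± 0.09 and 13.07 ± 0.20) did not pass.

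Promoter sequence was compared because so many of these genes moved the same way. RefSeq (GRCh38.p14) gave a promoter for 202 of the 249, including 51 of the 63 that rose and 7 of the 10 that fell, and the 250 bases before the first listed start were searched on both strands for 7 short motifs. The ETS factor core CCGGAA stood in 38.1% of the ZNF promoters, against 19.5% of the 14250 measured genes with a promoter and 14.8% of all 27305 genes in the table. It stood in 24 of the 51 promoters of genes that rose, 3 of the 7 of genes that fell and 50 of the 144 of genes that did not pass. In the ZNF genes on chromosome 19 the share was 40.9%. The zinc finger factor ZNF143's core ACTACAA stood in 5.94% of the ZNF promoters and 2.93% of measured genes, the NF-Y box CCAAT in 41.1% and 34.6%, and the GC box GGGCGG in 57.9% and 57.0%. The antioxidant response core TGACNNNGC stood in 11.9% and 11.8%, the AP-1 site TGANTCA in 3.47% and 5.07%, and the TATA box TATAAA in 3.96% and 8.99%. By call, CCAAT stood in 18 of the 51 that rose, 4 of the 7 that fell and 61 of the 144 that did not pass. For GGGCGG these counts were 29, 2 and 86. A difference between calls was not tested for any motif. A match is a description of these letters and not a site of binding, and motifs were counted independently where they overlap.

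The 150 bases before the start are shown for 4 genes of largest rise and 4 of the genes that fell, to set the promoters of both directions side by side. They read 5′ to 3′ on the gene's strand, and capitals mark any of the 7 motifs on either strand. First the genes that rose:
ZNF503, chr10:75401917-75402066, minus strand: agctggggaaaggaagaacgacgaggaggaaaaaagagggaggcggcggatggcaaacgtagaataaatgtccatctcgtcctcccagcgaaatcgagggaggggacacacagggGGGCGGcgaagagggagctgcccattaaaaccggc
ZNF425, chr7:149126325-149126474, minus strand: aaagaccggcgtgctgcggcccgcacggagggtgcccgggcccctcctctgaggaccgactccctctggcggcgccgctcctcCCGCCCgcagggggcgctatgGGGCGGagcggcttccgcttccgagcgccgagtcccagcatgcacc
ZNF79, chr9:127424232-127424381, plus strand: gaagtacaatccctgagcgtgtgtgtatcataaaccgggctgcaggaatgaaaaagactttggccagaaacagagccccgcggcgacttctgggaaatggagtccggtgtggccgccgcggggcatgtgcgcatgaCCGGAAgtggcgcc
ZNF597, chr16:3443505-3443654, minus strand: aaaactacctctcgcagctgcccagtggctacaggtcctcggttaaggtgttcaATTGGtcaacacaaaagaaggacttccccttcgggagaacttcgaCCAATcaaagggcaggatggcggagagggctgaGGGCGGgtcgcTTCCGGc
Then the genes that fell:
ZNF821, chr16:71883542-71883691, minus strand: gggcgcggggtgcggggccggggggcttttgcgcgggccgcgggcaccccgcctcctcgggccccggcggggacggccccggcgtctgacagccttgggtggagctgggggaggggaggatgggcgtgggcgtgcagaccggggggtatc
ZNF362, chr1:33256342-33256491, plus strand: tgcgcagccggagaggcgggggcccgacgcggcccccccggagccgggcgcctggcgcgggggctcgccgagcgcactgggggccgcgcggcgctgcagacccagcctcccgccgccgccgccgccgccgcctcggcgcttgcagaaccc
ZNF248, chr10:37858104-37858253, minus strand: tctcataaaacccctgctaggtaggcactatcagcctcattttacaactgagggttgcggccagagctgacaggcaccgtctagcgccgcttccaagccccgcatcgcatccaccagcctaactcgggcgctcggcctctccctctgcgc
ZNF92, chr7:65373705-65373854, plus strand: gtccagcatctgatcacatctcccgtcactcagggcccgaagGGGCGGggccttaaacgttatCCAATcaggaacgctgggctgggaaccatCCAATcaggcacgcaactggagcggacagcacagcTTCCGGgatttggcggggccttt

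Each of the 4 stretches from genes that rose held a motif, as did that of ZNF92, whereas none of the 7 motifs was found in the stretches of ZNF821, ZNF362 and ZNF248. Their longer windows of 250 bases held a CCAAT box in ZNF821 and ZNF248 and a GC box in ZNF362. In such windows, none of the 7 motifs stood in ZNF423, which fell, or in ZNF106, ZNF148, ZNF346, ZNF391 and ZNF662, which rose. All other called genes with a promoter held a motif there. The stretches shown are therefore examples, and no difference between directions is read from them. ZNF618 and ZNF704, the deepest falls, had no promoter in the set and are not shown. The ETS core lay toward the end next to the start in ZNF79 and ZNF597, which rose, and also in ZNF92, which fell. ZNF362 had the richest stretch in G and C, 85.3%, with 27 CpG, and ZNF821 followed at 80.7% with 18. Over the full windows the median G and C content was 63.6% in the genes that rose, 63.2% in those that fell and 62.4% in all measured genes.

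The genes were also grouped by what the proteins do. Of 16 measured chromatin cofactors, 8 rose and 0 fell, with a median difference of 0.77 against 0.01 for all genes, of which 12.3% rose and 9.09% fell. Their median signal stood at percentile 81.7, in the ninth bin, where 22.6% of all genes were called higher and 13.7% lower. Set against the signal bins, the medians of the 4 role lists, in the order given here, were 0.67, 0.41, 0.32 and 0.76. With any 1 array other than 15EN replicate 3 left out, 4 or 5 of the 16 rose. In those fits 7.36% to 8.47% of all genes rose. ZNF518A (1.67 ± 0.23) and ZNF518B (0.97 ± 0.21), a paralogous pair of which ZNF518B binds the methyltransferase EHMT2, both rose, although ZNF518B was below the 90th percentile of the negative controls in both groups. ZNF592 (1.10 ± 0.23), of the transcriptional corepressor module built around ZMYND8, rose, and its partners ZNF532 (0.56 ± 0.32) and ZNF687 (0.21 ± 0.31) did not pass. ZNF217, of the CoREST complex (0.87 ± 0.23), ZNF827, which brings the NuRD complex to telomeres (0.93 ± 0.22), the SUMO ligase ZNF451 (0.93 ± 0.24) and ZNF335, a chromatin factor mutated in microcephaly (0.93 ± 0.26), rose as well. The lowest value was that of ZNF516 (-0.53 ± 0.38), which did not pass. ZNF451, ZNF217 and ZNF335 passed in 2, 2 and 1 of the 6 fits with 1 array left out.

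Of 11 measured genes acting on RNA, ribosomes or translation, 4 rose and 0 fell (median 0.53), against 12.3% and 9.09% of all genes. Besides ZNF326 these were ZNF622, a factor of large ribosomal subunit maturation (1.41 ± 0.31), ZNF346, which binds double-stranded RNA (1.11 ± 0.21), and the RNA-binding protein gene ZNF106 (0.96 ± 0.26). The median signal of the 11 stood at percentile 68.2, in the seventh bin, where 20.1% of all genes were called higher and 14.9% lower. ZNF106 did not pass after quantile normalization, after removal of the brightness trend, or in 3 of the 6 fits with 1 array left out. ZNF593, also of large subunit maturation (0.71 ± 0.31), and the nucleolar protein gene ZNF330 (0.53 ± 0.26) did not pass. Neither did ZNF598, the ubiquitin ligase of collided ribosomes (-0.02 ± 0.21). ZNF593 and ZNF598 were dim in both groups, so the size of their differences is uncertain. The ZNF598 means, 4.60 in 15EN and 4.62 in VC, lay below the median of the negative controls on every array (4.75 to 5.06). Its small difference therefore does not show an unchanged gene.

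Among 10 promoter-binding factors, 2 rose and 1, ZNF362, fell (median 0.47), against 12.3% and 9.09% of all genes. Their median signal stood at percentile 81.9, in the ninth bin, where 22.6% of all genes were called higher and 13.7% lower. ZNF148 (0.81 ± 0.21) and ZNF263 rose, but neither passed after removal of the brightness trend, and they passed in 2 and 1 of the 6 fits with 1 array left out. Without 15EN replicate 3, 5 of the 10 rose, against 18.2% of all genes. Without VC replicate 2, 1 rose, and without any other array, 0 rose, against 7.36% to 8.47% of all genes. ZNF384 (0.50 ± 0.48), the close relative of ZNF362, did not pass and had the wider error. ZNF143, an activator of housekeeping promoters (0.44 ± 0.24), and its paralogue ZNF76 (-0.39 ± 0.22) did not pass either. ZNF24 (0.90 ± 0.33) did not pass (adjusted p = 0.0858, limma), but did with the replicate number as a block (adjusted p = 0.0262, limma).

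Of 12 genes tied to neuronal development or disorders, 4 rose and 1 fell (median 0.81), against 12.3% and 9.09% of all genes. Their median signal stood at percentile 77.2, in the eighth bin, where 22.3% of all genes were called higher and 15.3% lower. Without 15EN replicate 3, 8 of the 12 rose, against 18.2% of all genes, and the median of the 12 was 1.08. ZNF503, ZNF804A (1.78 ± 0.34), a gene at a schizophrenia risk locus, ZNF521 (1.64 ± 0.27) and ZNF365, which acts in replication fork recovery (1.06 ± 0.20), rose. ZNF521 and ZNF423 are paralogues that both act on EBF factors, and they moved in opposite directions as deposited: ZNF521 had 9.94, 10.11 and 9.38 in 15EN against 8.37, 8.40 and 7.75 in VC, while ZNF423 fell, a fall that was 0.04 after scaling to the hybridization controls. ZNF703 (0.70 ± 0.29), the NET family relative of ZNF503, which was dim in both groups, and ZNF746 (0.54 ± 0.28), a repressor of PPARGC1A, did not pass. The X-linked genes ZNF81 (0.92 ± 0.31) and ZNF674 (0.94 ± 0.38), studied in intellectual disability, did not pass (adjusted p = 0.0575 and 0.111, limma), but did with the replicate number as a block (adjusted p = 0.0188 and 0.0121, limma).

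**Figure D4:**
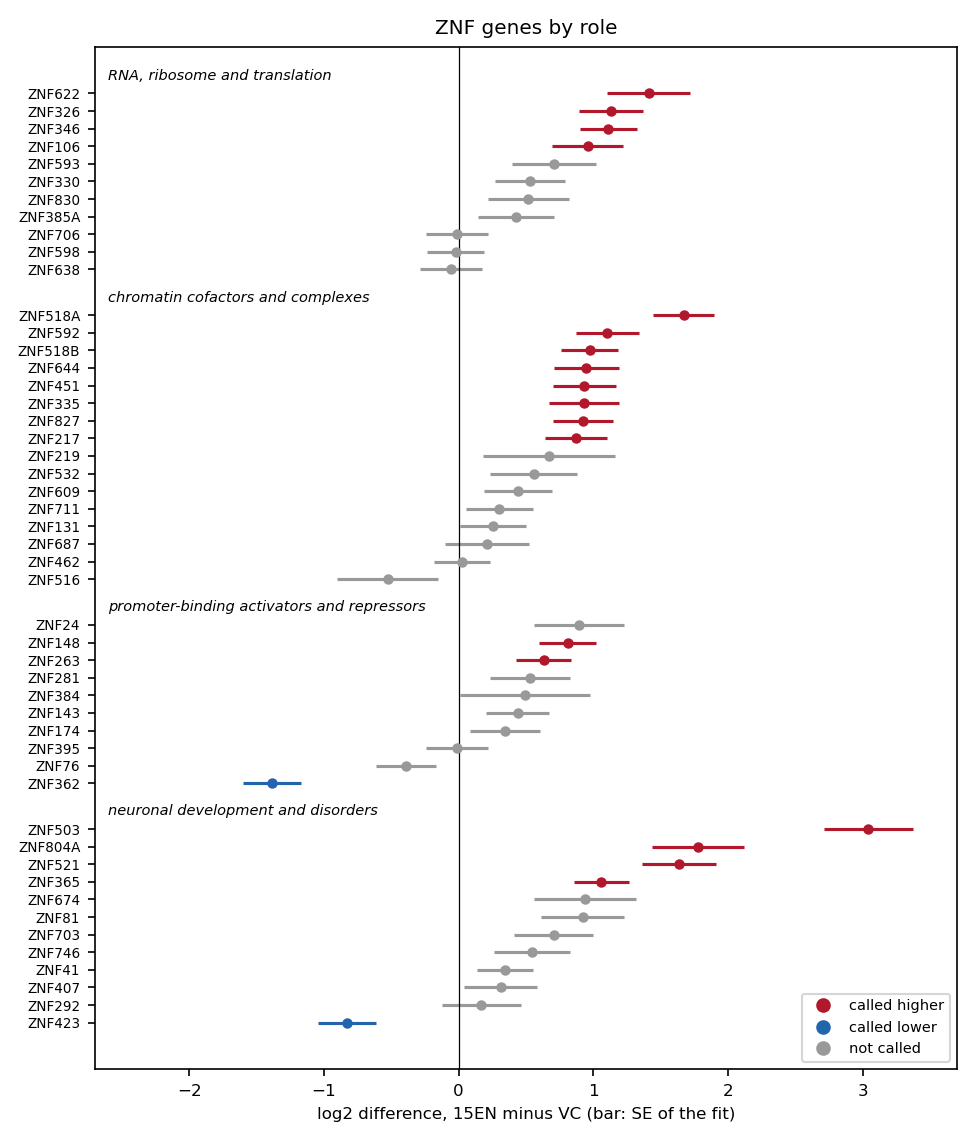
Log2 difference, 15EN minus VC, with the standard error of the fit, for the ZNF genes of 4 role lists, coloured by call. All 16 chromatin cofactors except ZNF516 have a positive difference, and ZNF362 and ZNF423 are the only genes of these lists called lower as deposited. ZNF423 is at 0.04 after scaling to the hybridization controls.

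Position within the genome was described by gene order. In RefSeq order, 85 of the 249 ZNF genes fell into 17 runs of at least 3 with at most 3 other protein-coding genes between neighbours. Runs were drawn after the differences were known. In 13 runs only higher calls occurred, in 1 only lower calls, and in 3 no call, and 0 runs held calls of both directions. Several runs held a single call, and only 2 of the 10 lower calls lay in any run, both in the same run. Mixed runs were therefore hardly possible and nothing is concluded. Among all genes 12.3% were called higher and 9.09% lower. In 9 runs every measured gene had a positive difference. The lowest median, -0.24, was that of the run from ZNF727 to ZNF273 on chromosome 7, where 2 of 7 genes had a positive difference. The runs from ZNF669 to ZNF496 and from ZNF248 to ZNF33B also had medians below 0 (-0.14 and -0.16). The 3 genes of the run ZNF619, ZNF620 and ZNF621 on chromosome 3 rose with all arrays (1.79 ± 0.32, 1.67 ± 0.38 and 1.15 ± 0.30). ZNF621 passed in 2 of the 6 fits with 1 array left out and ZNF620 in 5, and probe sets of closely related genes can share array signal. In the run from ZNF205 to ZNF597 on chromosome 16, 4 of 7 rose, led by ZNF597, ZNF75A (1.78 ± 0.33) and ZNF200 (1.74 ± 0.34). In the longest, from ZNF786 to ZNF862 on chromosome 7, 3 of 11 rose (ZNF425, ZNF777 and ZNF783) and the others ran from -0.31 to 0.65.

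The run with lower calls lies on chromosome 10. Its first 2 genes, ZNF248 and ZNF25, fell as deposited (-0.51 and -0.14 with the hybridization controls set equal), while ZNF33A (-0.16 ± 0.22), ZNF37A (0.07 ± 0.21) and ZNF33B (0.02 ± 0.25) did not pass. Farther along the same chromosome ZNF239 (1.75 ± 0.23) and ZNF485 (1.34 ± 0.29) rose beside ZNF32 (-0.11 ± 0.28). By chromosome, the ZNF median was above 0 on 19 of the 20 that carry these genes. The exception was chromosome 22, with 4 genes and a median of -0.05. Higher calls occurred on 19 of the 20 chromosomes and lower calls on 7.

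**Figure D5:**
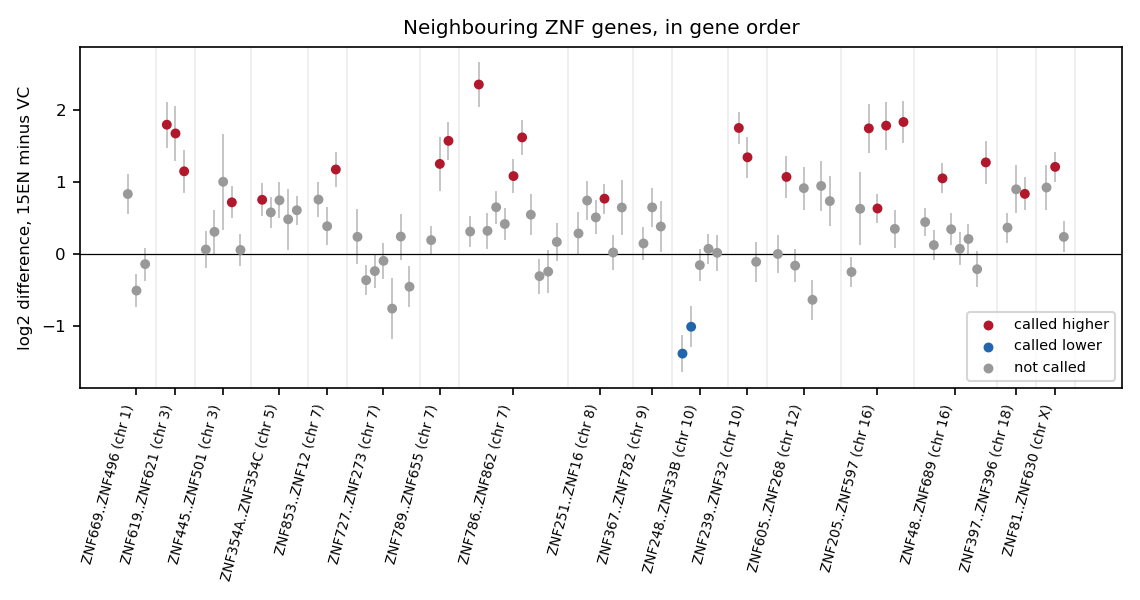
Log2 difference, 15EN minus VC, with the standard error of the fit, for 85 ZNF genes in 17 runs of neighbours, in gene order within each run. The chromosome 10 run from ZNF248 to ZNF33B is the only one with lower calls as deposited (2 of 5, but 0 of 5 with the hybridization controls set equal). Several runs hold a single call, so calls of both directions could not meet there.

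Families of like proteins are given beside these values without a test between them. The 233 ZNF genes on chromosome 19 had a median difference of 0.47, with 69 higher and 5 lower (113 and 5 without 15EN replicate 3, and 41 to 46 and 1 to 4 without any other array), and medians above the VC mean of 0.67, 0.64 and 0.15 in 15EN replicates 1, 2 and 3. Among 40 ZBTB genes, whose zinc fingers follow a BTB domain, 9 were higher and 1 lower (3 lower without 15EN replicate 3, 0 without any other array), and the median was 0.27. Among 25 ZSCAN and ZKSCAN genes 4 were higher and 0 lower, and the median was 0.50. Without 15EN replicate 3, 13 of these 25 were higher and 1 lower, and without VC replicate 3, 2 were higher. With the replicate number as a block 7 were higher. Among 21 genes with the symbol ZFP and a number, 3 were higher and 1 lower, and the median was 0.25. Without 15EN replicate 3, 7 of these 21 were higher and 2 lower. Set against the signal bins, the family medians were 0.41, 0.21, 0.38 and 0.08 in the order given here. Among all genes 12.3% were higher and 9.09% lower.

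The machinery through which KRAB proteins silence chromatin was described from a list of 30 genes, 27 of them measured. Of these 2 rose (7.41%) and 4 fell (14.8%), against 12.3% and 9.09% of all genes, with few genes behind either share. Their median was -0.17. With the hybridization controls set equal it was 0.70, where all genes had 0.88. These are bright genes, with a median signal at percentile 88.7. That lies in the ninth bin, where 22.6% of all genes were called higher and 13.7% lower. Set against the median of all genes in its own signal bin, the median gene of the list stood at -0.22, and 9 of 27 lay above it. All 15EN arrays lay below all VC arrays in 33.3% of the list (16.6% of all genes) and above in 22.2% (19.7%). TRIM28 itself had 12.70, 12.90 and 12.64 in 15EN against 12.67, 12.65 and 12.80 in VC (0.04 ± 0.20), and SETDB1 differed by 0.48 ± 0.29, neither passing. The heterochromatin protein genes CBX1 (-1.76 ± 0.29) and CBX3 (-0.78 ± 0.24), the histone deacetylase gene HDAC1 (-0.79 ± 0.21) and UHRF1, which brings DNA methyltransferase to replicated DNA (-1.37 ± 0.29), fell as deposited, while CBX3 and HDAC1 were at 0.09 and 0.08 after that scaling. TASOR, of the HUSH silencing complex (0.81 ± 0.23), and the NuRD subunit gene GATAD2B (0.65 ± 0.21) rose, and GATAD2B did not pass with the replicate number as a block (adjusted p = 0.0551, limma). With 15EN replicate 3 left out, 5 genes of this list rose. With VC replicate 3 left out 1 rose, and with any other array left out 0 rose. The count of falls was 2 without VC replicate 1 or 3.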

How the data were processed

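Labelled cDNA from 6 SH-SY5Y samples was hybridised to 1-colour Affymetrix arrays. The authors deposited 1 log2 signal per probe set and array, made with the Transcriptome Analysis Console per the submitters' processing notes. The version, the normalization and the build are each not given in the sources used here. That the scale is log2 was judged from the values.

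Of 24351 probe sets, 2903 were controls. Of 21448 gene probe sets, 17709 carried 1 symbol, 0 several and 3739 none. All 17709 Entrez identifiers matched RefSeq (GRCh38.p14), and 0 symbols changed. The probe set of highest mean was kept per gene (22 set aside, none of a ZNF gene described here), with no filter on low signal. Of the 249 genes, 57 were dim in both groups, meaning below the mean 90th percentile of the 612 negative controls. ZNF658B and ZNF767P are not protein coding.

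The comparison of 15EN with VC used lmFit and eBayes of limma 3.58.1 (R 4.3.3), two-sided, without further terms, and was adjusted over 17687 genes. The errors beside differences are standard errors of that fit. The fit was also run on simulated data of 17687 genes for this comparison, with 500 changed genes per size over all simulated sets. It recovered 10.4% of changes of 1, 50.6% of 1.5 and 72.4% of 2 on the log2 scale. Of its calls there, 4.30% were false. Each simulated set held far fewer changed genes than the 3787 called here, which makes the adjusted threshold stricter. These shares therefore belong to the simulated setting and do not give the power of the fit described above. The number of arrays limits the precision.

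Same-numbered arrays share a passage in titles and source names, although every description gives passage 33, and their deviations from the group means correlated at 0.229, 0.162 and 0.133 across genes. The numbers were therefore taken to pair the samples, and a fit with this block was run. Further settings were scaling to the 4 hybridization controls, quantile normalization, centring on medians, removal of the brightness trend, omission of the dimmest tercile or of each array, averaging of probe sets per gene, a trended robust prior and 2 other symbol rules.

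Named genes are ZNF362, ZNF326 and ZNF644, all called lower, the 15 largest rises, the 4 role lists, the 5 brightest in VC and called genes of the corepressor list. Genes next to the threshold, in runs of neighbours or in marker lists were added after their values were seen. The genes and lists were chosen with earlier results of these data known. Of the role lists, ZNF207, ZNF608 and ZNF238 were not analysed here, and ZNF536 lies on chromosome 19. A count of zinc fingers and KRAB domains in the proteins had been planned and was not run, since no protein sequences were used here.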

Additional observations from a re-analysis of the deposited data

How the results depend on the processing

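The median ZNF difference stayed positive and above that of all genes in all 16 other settings. In none of them was any of the 73 called genes called in the opposite direction. Several settings could not move this median relative to all genes. The replicate block, the trended robust prior and the averaging of probe sets left it at 0.38. Median centring and scaling to the hybridization controls add the same constant to ZNF genes and all genes. Scaling to the hybridization controls gave 217 higher and 2 lower genes and a median of 1.25, with 15 higher and 1 lower corepressor genes, by construction, since it adds a constant to every difference. The split of all calls moved from 57.5% higher as deposited to 96.5%. Under that scaling ZNF713 (0.00910), ZNF423 (0.0373), ZNF512B (0.18), HDAC1 (0.0759) and CBX3 (0.0858) changed sign. After quantile normalization there were 60 higher and 14 lower ZNF genes, and after removal of the brightness trend 55 and 14. Both settings gave 0 higher and 6 lower corepressor genes. The cause was not tested. Leaving out 1 array gave 41 to 101 higher and 5 to 9 lower ZNF genes, in smaller fits. Of all genes, 7.36% to 18.2% were called higher and 5.48% to 12.7% lower there. The ZNF medians were 0.29 to 0.47, and the distances from the signal bin 0.23 to 0.41. The corepressor list gave 0 to 5 higher and 2 to 4 lower genes in those fits. With the replicate number as a block there were 71 higher and 12 lower ZNF genes (62 of the 63 and 9 of the 10 among them) and 1 higher and 5 lower corepressor genes. The calls changed by the block among named genes were those of ZNF512B, ZNF263, ZNF24, ZNF81, ZNF674 and GATAD2B. Signal bins drawn on the VC mean, an alternative chosen after seeing the data, gave a distance of 0.32 (0.28 in bins of the mean over all arrays). Low signal limits the size of differences in the 57 genes dim in both groups.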
